A study of Mus musculus with 2 samples.

Results

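The cells described here are the C1q macrophages of pancreatic islets from NOD mice, which become diabetic through autoimmune attack on the islets. They were picked barcode by barcode from raw counts of unique molecular identifiers (UMIs, each standing for 1 captured RNA molecule). A barcode was taken if it held at least 200 genes, at most 20% mitochondrial UMIs and under 2% UMIs of the islet hormone genes Ins1, Ins2, Gcg, Sst and Ppy. It also had to carry at least 2 UMIs of C1qa, C1qb and C1qc together and none of the T cell genes Cd3d, Cd3e, Cd3g and Trac or the B cell genes Cd79a and Ms4a1. This gave 322 barcodes of the 8813 that passed the gene and mitochondrial filters, and of 9374 deposited. There were 174 in the HAMSAB library and 148 in the HAMS library.

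The study fed NOD mice, 5 weeks old at the start, with HAMSAB or with HAMS for 5 weeks, and made 1 droplet library of islet cells per diet. HAMS is known in the field as high-amylose maize starch, and HAMSAB as its acetylated and butyrylated form, from which gut microbes free acetate and butyrate. Genotype, starting age and feeding time were the same in both groups, and the number and sex of the mice behind a library are not stated. With 1 library per diet no test between the diets exists, so diet and library cannot be told apart, and every 95% interval below covers counting error only.

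C1q is the recognition unit of the classical complement pathway. It is built from A, B and C chains encoded by C1qa, C1qb and C1qc, and tissue macrophages are a main source of it. Islets hold resident macrophages close to the beta cells and vessels, which take up granule material, present it on MHC class II and can release interleukin 1 and tumour necrosis factor. In NOD mice these cells are studied as early antigen-presenting cells of islet inflammation.

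The 3 C1q genes lie side by side on chromosome 4 (RefSeq, GRCm38.p6), C1qb at 136880126-136886200, C1qc at 136889801-136892936 and C1qa at 136895916-136898844, all within 1 cluster. Promoters are shown for the genes that define these cells and, for contrast, for Cxcl1 and Nfkbia, both among the genes higher in HAMSAB in the diet comparison below. Each runs from 250 bases before to 50 bases after the RefSeq start site, 5′ to 3′ on the gene's strand. RefSeq's table held 2 of the 3 C1q promoters, and C1qa is named only. In the C1q promoters capitals mark AGGAAGT, or its reverse complement, a sequence of the type read by the myeloid factor PU.1. C1qb, chr4:136886151-136886450, minus strand, has 1 match 53 bases before the start site, and C1qc, chr4:136892865-136893164, minus strand, has 1 match 195 bases before it.
C1qb: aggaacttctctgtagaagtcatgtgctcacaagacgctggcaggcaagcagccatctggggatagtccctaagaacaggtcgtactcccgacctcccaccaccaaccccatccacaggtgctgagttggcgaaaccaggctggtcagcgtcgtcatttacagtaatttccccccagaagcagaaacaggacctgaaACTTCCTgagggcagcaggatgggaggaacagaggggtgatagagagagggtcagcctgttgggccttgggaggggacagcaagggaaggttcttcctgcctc
C1qc: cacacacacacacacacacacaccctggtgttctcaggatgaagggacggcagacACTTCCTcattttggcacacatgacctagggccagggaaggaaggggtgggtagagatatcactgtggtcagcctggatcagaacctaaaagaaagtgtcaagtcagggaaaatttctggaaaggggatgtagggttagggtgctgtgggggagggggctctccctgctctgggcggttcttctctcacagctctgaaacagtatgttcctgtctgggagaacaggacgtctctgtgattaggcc
Of all 32851 promoters of this length in the table, 9.35% held this motif on either strand. In the next pair capitals mark the kappaB consensus on either strand, the sequence read by NF-kappaB. Cxcl1, chr5:90890995-90891294, plus strand, has a stretch that matches on both strands 71 and 70 bases before the start site, and Nfkbia, chr12:55492598-55492897, minus strand, has 1 match 29 bases before it.
Cxcl1: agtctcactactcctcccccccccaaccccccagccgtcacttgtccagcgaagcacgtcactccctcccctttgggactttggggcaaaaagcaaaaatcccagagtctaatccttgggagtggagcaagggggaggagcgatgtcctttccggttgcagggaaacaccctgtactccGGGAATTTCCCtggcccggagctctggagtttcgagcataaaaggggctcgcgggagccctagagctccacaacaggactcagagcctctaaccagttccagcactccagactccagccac
Nfkbia: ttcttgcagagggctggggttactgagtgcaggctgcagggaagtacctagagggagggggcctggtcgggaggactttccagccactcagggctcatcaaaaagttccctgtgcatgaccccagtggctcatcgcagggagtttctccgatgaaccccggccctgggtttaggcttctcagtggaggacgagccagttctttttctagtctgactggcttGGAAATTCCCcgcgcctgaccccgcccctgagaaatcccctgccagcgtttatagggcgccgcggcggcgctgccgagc
This consensus stood in 4.51% of the same promoters. A match describes the letters in the window and does not show that a factor was bound.

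The HAMSAB and HAMS libraries held 4254040 and 3599756 UMIs, and kept barcodes had a median of 705 and 704 UMIs. The C1q macrophages carried 129364 UMIs in HAMSAB and 120342 in HAMS, with medians of 699.5 and 725.5 UMIs and 363 and 373.5 genes per barcode. Their median mitochondrial share was 0.715% in HAMSAB and 1.04% in HAMS, and Actb alone took 21.3% and 21.9% of their UMIs. At this depth most genes have under 1 UMI per cell, so levels are sums over all macrophages of a library, scaled to counts per 1000000 of their summed UMIs (CPM). The libraries shared 6 barcode sequences, none of them a macrophage by this rule.

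C1q macrophages made up 3.76% of kept barcodes in HAMSAB (174 of 4628, exact Clopper-Pearson interval 3.23 to 4.35%) and 3.54% in HAMS (148 of 4185, 3.0 to 4.14%). The ratio of 1.06, HAMSAB over HAMS, had an interval of 0.849 to 1.33, so no difference in this share was detectable. Counted only among barcodes under the hormone limit, they were 5.43% in HAMSAB (4.67 to 6.27%) and 8.28% in HAMS (7.05 to 9.66%), a ratio of 0.656 (0.524 to 0.822). The ratio thus depended on which barcodes were counted. In all, 3204 barcodes were under the hormone limit in HAMSAB against 1787 in HAMS, and T cell genes marked 313 against 149 barcodes and B cell genes 332 against 115.

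C1q UMIs chose these barcodes and are given as a description. Each held a median of 4 C1q UMIs in both libraries, with at most 16 in HAMSAB and 14 in HAMS. All 3 chains were seen in 62 barcodes (35.6%) in HAMSAB and 54 (36.5%) in HAMS. C1qa, the A chain, had 294 UMIs in HAMSAB and 265 in HAMS, which is 2273 and 2202 CPM. C1qb, the B chain, had 226 and 227 UMIs, and C1qc, the C chain, had 214 UMIs in HAMSAB and 167 in HAMS. The log2 ratios of HAMSAB over HAMS were 0.05 for C1qa (interval -0.20 to 0.29), -0.11 for C1qb (-0.38 to 0.16) and 0.25 for C1qc (-0.05 to 0.55), and each interval held 0.

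The limit of 2 C1q UMIs passes through a gradual range. Just inside it, 45 HAMSAB and 32 HAMS barcodes had exactly 2 C1q UMIs, and just outside it 63 and 56 barcodes had 1. Lyz2, the lysozyme gene of macrophages and other myeloid cells, stood at 5735 CPM in HAMSAB and 3335 CPM in HAMS just inside, and at 2294 and 2373 CPM just outside. Barcodes with no C1q UMI that otherwise met the rule had 422 CPM in HAMSAB and 248 CPM in HAMS. The barcodes just outside therefore carried more Lyz2 than the C1q-negative barcodes, and less than those just inside. As a background, at least 1 C1q UMI was seen in 1.19% of HAMSAB and 1.13% of HAMS endocrine barcodes, with median depths of 724 and 629 UMIs. At least 2 C1q UMIs were seen in 0 of 672 HAMSAB and 1 of 885 HAMS endocrine barcodes.

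The macrophage label was checked against markers that the rule did not use. Lyz2 was present in 81.6% of HAMSAB and 78.4% of HAMS macrophages, with 5388 and 4221 CPM. Ctss, the lysosomal protease cathepsin S that trims the class II invariant chain, was present in 90.2% and 91.9%, with 4592 CPM in HAMSAB and 4712 CPM in HAMS. Apoe, a lipid carrier that macrophages secrete, was seen in 24.1% and 29.7% of barcodes, with 866 and 906 CPM. Of the 15 macrophage markers 3 are the C1q genes of the rule, and the other 12 were all detected in both libraries, but several rested on few UMIs. Csf1r, the receptor for the growth factor CSF1, had 30 UMIs in HAMSAB and 33 in HAMS. Adgre1, which encodes F4/80, had 10 and 11 UMIs, and Trem2, a lipid-sensing receptor, had 1 in each library.

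Of the genes that define other cell types, several were not detected and others were. The neutrophil genes S100a8 and S100a9, the plasmacytoid dendritic cell gene Siglech, the mast cell gene Cpa3 and the dendritic cell genes Cd209a and Flt3 had 0 UMIs in both libraries. Of the neutrophil list only Csf3r was seen (5 UMIs in HAMSAB and 4 in HAMS), and of the mast cell list only Kit (3 and 4). Plasma cell markers summed to 8 and 19 UMIs, led by Xbp1. Fibroblast or stellate cell markers summed to 14 and 24, led by Rgs5. The 8 monocyte markers summed to 21 UMIs in HAMSAB and 12 in HAMS, and the 7 acinar markers to 8 and 0. The rule itself set 4 of the 10 T cell markers and 2 of the 7 B cell markers to 0, and the 6 and 5 others summed to 4 and 1 UMIs in each library. Markers shared with dendritic cells were present, the list of cross-presenting cells with 65 UMIs in HAMSAB and 56 in HAMS, led by Irf8 and Cadm1. The list of the other conventional dendritic cells had 73 and 53 UMIs, led by Itgax and Sirpa, that of mature dendritic cells 46 and 38, and that of plasmacytoid cells 48 and 50, led by Tcf4. The 8 beta cell markers summed to 79 UMIs in HAMSAB and 87 in HAMS, mostly Ins2 and Ins1. The part of these markers in the ratios between the diets was not tested. The 5 hormone genes took 0.0889% of macrophage UMIs in HAMSAB and 0.105% in HAMS. Clu, a secreted chaperone of duct cells, had the most UMIs among the duct genes, with 133 UMIs in HAMSAB and 198 in HAMS. Of these, 129 sat in 1 HAMSAB barcode and 196 in 2 HAMS barcodes, and the share ratio without these barcodes was 1.07.

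**Figure D1:**
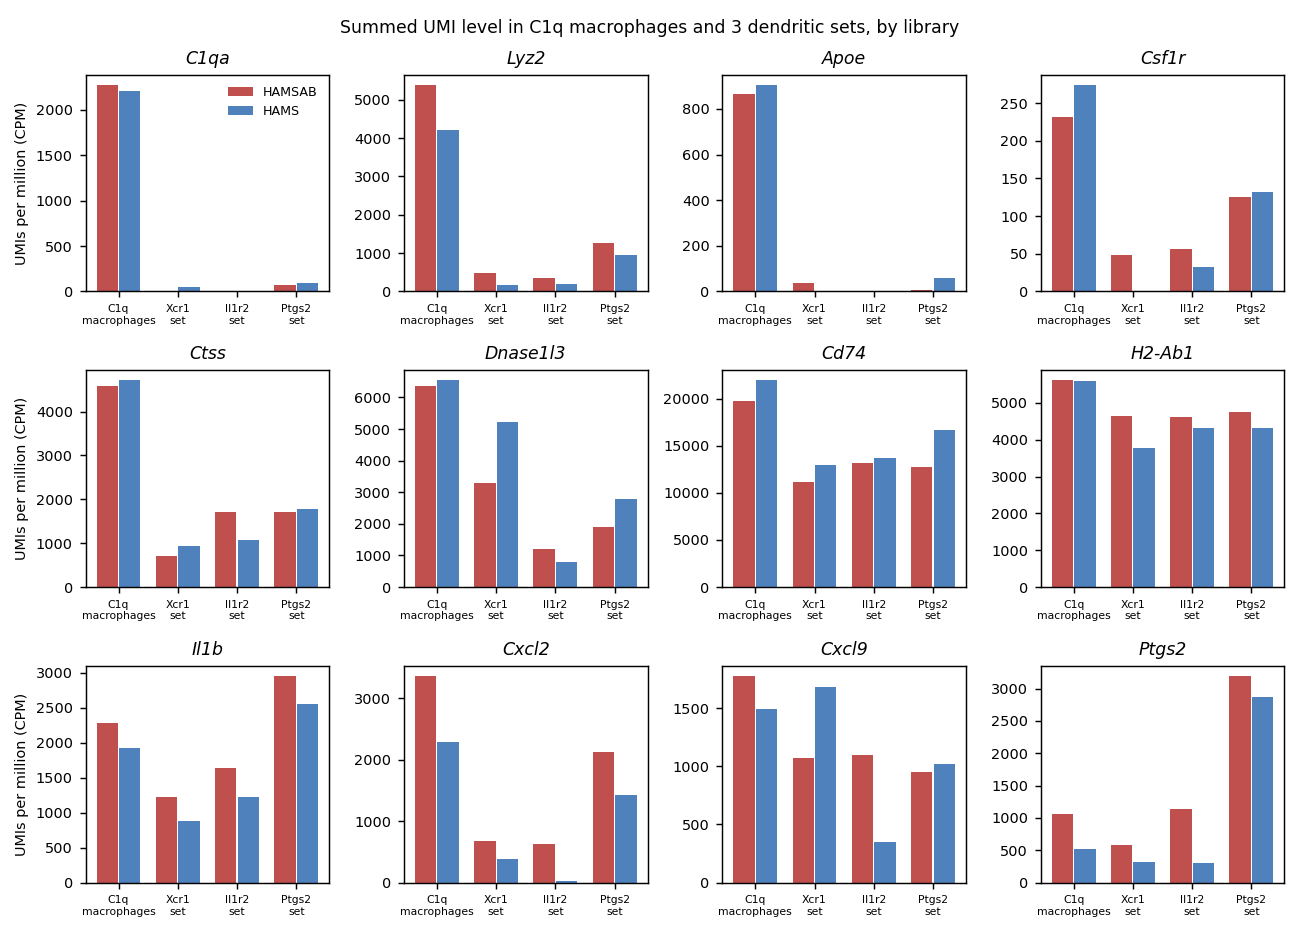
Summed level (CPM, linear axis from 0) of 12 genes in C1q macrophages and in 3 sets of C1q-poor antigen-presenting barcodes, with HAMSAB in red and HAMS in blue. C1qa, which was used to choose the sets, Lyz2, Apoe and Ctss stood highest in the macrophages of both libraries, while Ptgs2, also used to choose the Ptgs2 set, stood highest in that set.

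The closest other cells were 3 sets of antigen-presenting barcodes with under 2 C1q UMIs, and levels against them are a description because their definition used the same counts. The Xcr1 set carried Xcr1 or Clec9a, genes of cross-presenting dendritic cells (74 HAMSAB and 38 HAMS barcodes). The Il1r2 set carried at least 2 UMIs of Il1r2 and Ifitm1 together, besides class II genes (112 and 72), and the Ptgs2 set at least 2 of Ptgs2 and Nlrp3 with class II genes (181 and 102). Against the sum of these sets, macrophages stood higher in both libraries for the genes given next. Apoe stood at 866 CPM in HAMSAB macrophages against 12.7 CPM in the HAMSAB sets, and at 906 CPM against 27.1 CPM in HAMS. Lyz2 stood at 5388 against 796 CPM in HAMSAB and at 4221 against 531 CPM in HAMS. Ctsb, the lysosomal protease cathepsin B, stood at 804 against 95.2 CPM in HAMSAB and at 823 against 119 CPM in HAMS. The macrophage to dendritic log2 ratio was thus at least 2.76 in both libraries for all 3 genes.

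C5ar1, the receptor for the complement fragment C5a, had 518 CPM in HAMSAB macrophages against 63.4 in the HAMSAB sets, and 557 against 37.9 in HAMS. Tgfbi, a matrix protein induced by TGF-beta, had 1013 against 117 CPM in HAMSAB and 1130 against 146 in HAMS. Selenop, the secreted selenium carrier, had 1670 against 76.1 CPM in HAMSAB and 1479 against 152 in HAMS, but its 3′ end overlaps Ccdc152 on chromosome 15, and the 1654 and 1388 CPM of Ccdc152 may be the same reads. Plau, the urokinase protease, Fcgr4, an activating IgG receptor, Tlr2, a receptor for bacterial lipoproteins, and Cebpa, a myeloid transcription factor, were also among the 20 genes with the highest ratio of macrophages over the sets, ranked with 0.5 UMI added to each sum. Each of these genes was higher in macrophages in HAMSAB and in HAMS.

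Cxcl13, a chemokine that draws B cells, was seen in macrophages and not in the sets. It had 57 UMIs in HAMSAB and 118 in HAMS macrophages and 0 UMIs in all 3 sets of either library. Against a floor of 3 UMIs over the sets, that is at least 46.3-fold higher in HAMSAB and at least 60.4-fold higher in HAMS. It came from few cells, 12 of 174 HAMSAB macrophages (6.90%) and 23 of 148 HAMS macrophages (15.5%). T barcodes held 1 Cxcl13 UMI in each library.

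Genes lower in macrophages than in the sets included Lsp1, an actin-binding protein of leukocytes, at 38.7 CPM in HAMSAB macrophages against 431 in the HAMSAB sets and at 41.5 against 379 in HAMS. S100a4, a calcium-binding protein of motile cells, stood at 7.73 against 241 CPM in HAMSAB and at 16.6 against 271 in HAMS. H2-Ob, a subunit of the class II peptide-loading modulator H2-O, stood at 15.5 against 178 CPM in HAMSAB and at 8.31 against 152 in HAMS. Class II genes helped to choose the Il1r2 and Ptgs2 sets, and among them H2-Ab1 stood at 5612 against 4688 CPM in HAMSAB and at 5592 against 4201 in HAMS.

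Between the diets, a small part of the genes differed by 2-fold. Both libraries together gave 681 genes a sum of 50 UMIs or more, and 14 of these were at least 2-fold higher in HAMSAB (2.06%) and 8 at least 2-fold lower (1.17%), so 3.23% were past 2-fold in either direction. The median log2 ratio over all 681 was 0.01. The counting interval lay above 0 for 73 genes and below 0 for 39, and no p-value goes with these counts. With equal weight for each barcode, 12 genes passed 2-fold on the lower side and 9 on the higher side. Genes named below are the 12 with the interval bound farthest above 0 and the 12 with the bound farthest below 0.

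**Figure D2:**
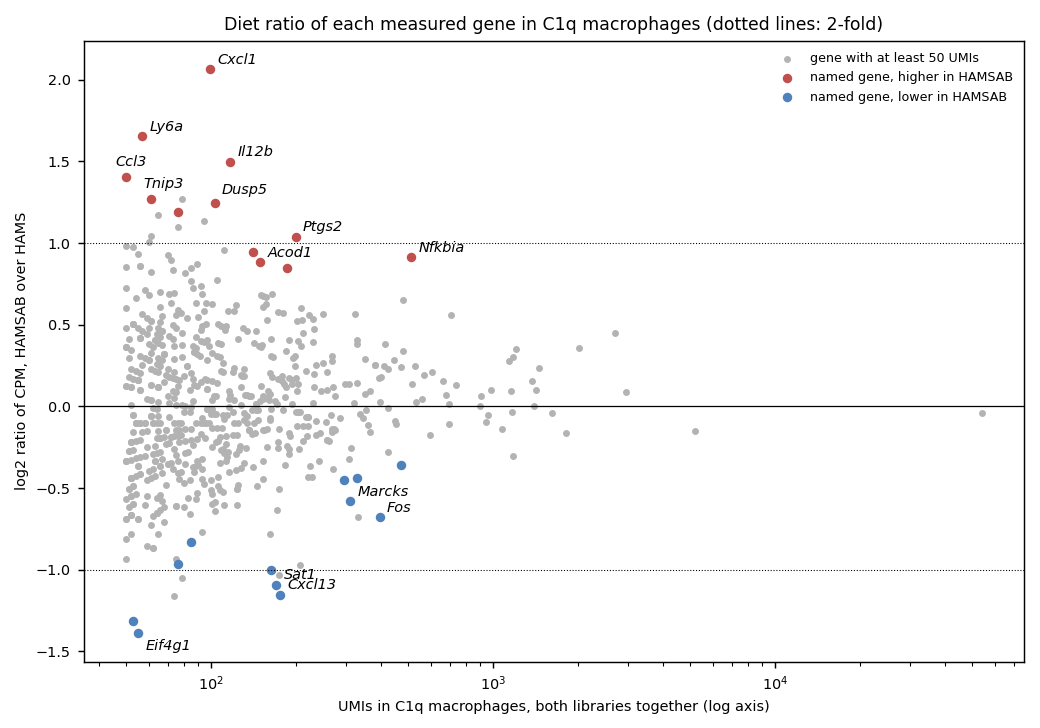
Log2 ratio of CPM, HAMSAB over HAMS, against the summed UMIs of each of 681 genes (log axis) in C1q macrophages, with dotted lines at 2-fold and named genes in red (higher in HAMSAB) and blue (lower in HAMSAB). Cxcl1 stands highest at 2.07, and Eif4g1 is lowest of the named genes at -1.39.

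Cxcl1, a chemokine that draws neutrophils, was the gene farthest above 0. It had 81 UMIs in HAMSAB and 18 in HAMS macrophages, or 626 and 150 CPM, a log2 ratio of 2.07 (1.32 to 2.89). The UMIs were spread over 42 barcodes (24.1%) in HAMSAB and 10 (6.76%) in HAMS, and no barcode held more than 8. Leaving out the barcode richest in Cxcl1 in each library gave 2.18. T barcodes, which should lack it, had 14 Cxcl1 UMIs in 4 of 313 HAMSAB barcodes and 0 in 149 HAMS barcodes, at 34.3 CPM in HAMSAB, against 626 CPM in the HAMSAB macrophages. In the Ptgs2 set Cxcl1 stood at 271 CPM in HAMSAB and 156 CPM in HAMS. Over the 3 sets summed the Cxcl1 ratio was 0.99 (0.07 to 2.0), so it was higher in HAMSAB there too.

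Il12b, the p40 chain shared by the cytokines IL-12 and IL-23, had 88 UMIs in HAMSAB and 29 in HAMS, 680 and 241 CPM, a log2 ratio of 1.5 (0.88 to 2.16). It was found in 21.3% of HAMSAB and 12.8% of HAMS macrophages. Ptgs2, the prostaglandin synthase COX-2, had 1059 CPM in HAMSAB and 515 CPM in HAMS, a ratio of 1.04 (0.60 to 1.5). With a single C1q UMI accepted, the ratios were 0.81 for Il12b and 0.53 for Ptgs2. In the 3 sets summed, the Il12b ratio was -0.15 (-0.90 to 0.62) and the Ptgs2 ratio 0.40 (0.19 to 0.61). The Ptgs2 set was chosen partly on Ptgs2.

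Nfkbia, the inhibitor of NF-kappaB and itself an NF-kappaB target, was found in 121 of 174 HAMSAB and 74 of 148 HAMS macrophages. Its level was 2644 CPM in HAMSAB and 1404 CPM in HAMS, a log2 ratio of 0.91 (0.64 to 1.19). It was also higher in HAMSAB in T barcodes (691 against 326 CPM, ratio 1.08), in endocrine barcodes (549 against 366 CPM, 0.58) and in the 3 sets together (0.62). In B barcodes it stood at 267 against 235 CPM, a ratio of 0.18 (-0.37 to 0.76) whose interval held 0. A higher level was thus seen beyond macrophages, but not in each set of cells. Tnip3, which binds the NF-kappaB inhibitor A20, was higher by 1.27 (0.43 to 2.17). Dusp5, a nuclear phosphatase of ERK, was found in 33.3% and 14.9% of barcodes with a ratio of 1.25 (0.61 to 1.92). In the 3 sets Tnip3 stood at -0.02 and Dusp5 at -0.10, with intervals that held 0.

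Ly6a, an interferon-responsive surface protein known as Sca-1, had 340 CPM in HAMSAB and 108 CPM in HAMS, a log2 ratio of 1.65 (0.74 to 2.67). Acod1, which makes itaconate, had 765 CPM in HAMSAB and 415 CPM in HAMS, a ratio of 0.88 (0.38 to 1.40). Ccl3, a chemokine for T cells and monocytes, had 37 UMIs in HAMSAB and 13 in HAMS, a ratio of 1.40 (0.46 to 2.44), with 9 of the HAMSAB UMIs in 1 barcode. M6pr, which sorts enzymes to lysosomes, Ctsc, a protease that activates granule enzymes, and Mxd1, a partner of MAX, were higher by 1.19, 0.94 and 0.85. The other genes past 2-fold higher, named because they passed and not by rank, were Smim3, Rpl35, Ppp1r15a, Man1a, Lilrb4a and Pam. Pam had 33 of its 57 HAMSAB UMIs in 1 barcode, and its ratio of 1.27 was 0.58 without the richest barcode of each library. Endocrine barcodes held 12399 CPM of Pam in HAMSAB and 12273 CPM in HAMS. Among the 12 genes, 10 had a promoter in RefSeq's table. Of these, 3 held the kappaB consensus shown above, namely Cxcl1, Nfkbia and Tnip3, beside 4.51% of all promoters. Of the 12 genes on the lower side 8 had a promoter there and 1, Fos, held it. Another spelling of the motif, tried before the consensus, gave 4 and 0, and its share over all promoters was not computed. The consensus was taken up after those matches had been seen, so the counts turn on the letters allowed.

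**Figure D3:**
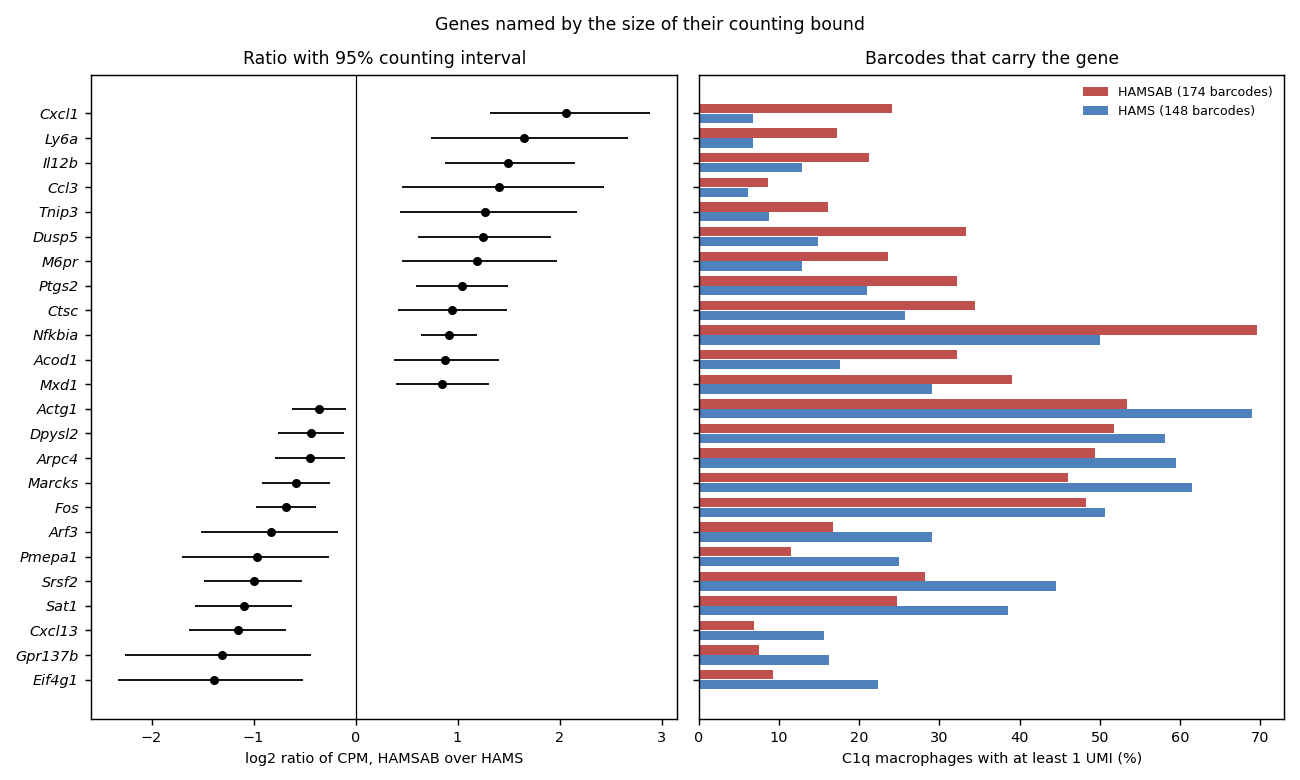
Left, log2 ratio of CPM, HAMSAB over HAMS, with 95% counting intervals for the 24 named genes; right, share of C1q macrophages with at least 1 UMI, HAMSAB in red and HAMS in blue. Nfkbia was carried by 121 of 174 HAMSAB and 74 of 148 HAMS macrophages, and Marcks by 46.0% and 61.5%.

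On the lower side, Cxcl13 stood at 441 CPM in HAMSAB and 981 CPM in HAMS, a log2 ratio of -1.15 (-1.64 to -0.69). Its UMIs came from 12 HAMSAB and 23 HAMS barcodes, with up to 16 and 17 in a barcode, and the counting interval treats each UMI as independent. Without the richest barcode of each library the ratio was -1.40. Sat1, which acetylates polyamines, stood at 441 CPM in HAMSAB and 939 CPM in HAMS, a ratio of -1.09 (-1.58 to -0.62). Srsf2, a splicing factor, stood at 441 and 881 CPM, a ratio of -1.0 (-1.49 to -0.52). Eif4g1, a scaffold of translation initiation, and Gpr137b, a lysosomal membrane protein, were lower by 2-fold or more, with ratios of -1.39 and -1.31 on 55 and 53 UMIs. Sat1 was also lower in the 3 sets together (-0.90), and Gpr137b likewise (-0.85), while Srsf2 was at 0.18 and Eif4g1 at 0.06 with intervals that held 0.

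Fos, a subunit of the AP-1 factor induced within minutes of stimulation or tissue dissociation, stood at 1229 CPM in HAMSAB and 1969 CPM in HAMS, a ratio of -0.68 (-0.98 to -0.38). It was lower in HAMSAB endocrine barcodes too, at 1515 against 3362 CPM (-1.15), and in the Ptgs2 set at 625 against 1356 CPM (-1.12), while in the Il1r2 set it was higher at 589 against 348 CPM (0.76). Marcks, a membrane-bound actin regulator, was found in 46.0% of HAMSAB and 61.5% of HAMS macrophages, a ratio of -0.58 (-0.92 to -0.25). Actg1, a cytoplasmic actin, and Arpc4, a subunit of the Arp2/3 complex, differed less, at -0.36 and -0.45. Actg1 was also lower in HAMSAB in endocrine (-0.32), T (-0.42) and B barcodes (-0.31) and in the 3 sets together (-0.32). In those sets Marcks was lower too, at -0.34 (-0.56 to -0.12), while Arpc4 was at 0.03 with an interval that held 0. Dpysl2 (-0.44), Arf3 (-0.83) and Pmepa1 (-0.96) complete the 12. Dpysl2 was also lower in endocrine (-0.38) and T barcodes (-0.37), but higher in the Il1r2 set (0.76). Arf3 was lower in endocrine barcodes (-1.04) and Pmepa1 in T barcodes (-0.56). The other genes past 2-fold lower were Jun, Lmna, Zscan26 and mt-Nd2, the last at 464 CPM in HAMSAB and 947 CPM in HAMS beside median mitochondrial shares of 0.715% and 1.04%. Jun, Lmna and Zscan26 stood higher in endocrine barcodes of both libraries than in macrophages, by over 2-fold.

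Among 22 inflammatory mediators, 11 were measured and 9 had a ratio above 0, beside 345 of all 681 genes. Past 2-fold higher were 2, beside 2.06% of all genes, and past 2-fold lower 0. Their median log2 ratio was 0.63, beside 0.01 over all 681 genes. Besides the genes above, Tnf, tumour necrosis factor, stood at 734 CPM in HAMSAB and 457 CPM in HAMS (0.68, 0.19 to 1.19). Nfkb1, the p105 precursor of an NF-kappaB subunit, stood at 464 and 299 CPM (0.63, 0.01 to 1.27). Il1b, interleukin 1 beta, stood at 2280 and 1920 CPM, a ratio of 0.25 whose interval just held 0. Tnfaip3, the A20 protein, and Tlr2 lay below 0, at -0.41 and -0.44, with intervals that held 0. The 11 measured genes were thus mixed, with Il12b, Ptgs2, Nfkbia and Acod1 farthest above 0 among them. Of the members not measured, Il1a alone had an interval that did not hold 0. Its log2 ratio was 2.77 (1.04 to 5.15), on 22 UMIs in HAMSAB and 3 in HAMS.

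Among 23 chemokines and their receptors, 12 were measured and 10 had a ratio above 0, beside 345 of all 681 genes. Past 2-fold higher were 2 (Cxcl1, Ccl3), beside 2.06% of all genes. Past 2-fold lower was 1 (Cxcl13), beside 1.17% of all genes. Their median log2 ratio was 0.35, beside 0.01 over all 681 genes. Cxcl2, another neutrophil chemokine, stood at 3363 CPM in HAMSAB and 2285 CPM in HAMS (0.56, 0.34 to 0.78). It was also higher in HAMSAB in the Ptgs2 set (0.57, 0.26 to 0.89) and in the Il1r2 set (4.26, on 56 against 2 UMIs). In the Xcr1 set its ratio was 0.79 with an interval that held 0. Ccl4 stood at 363 and 191 CPM (0.93, 0.18 to 1.71). Cxcl9, an interferon gamma-induced chemokine for T cells, stood at 1778 and 1496 CPM, a ratio of 0.25 whose interval held 0. Ccl5 (-0.20) lay below 0 with an interval that held 0. Cxcl1 and Cxcl2, which draw neutrophils, thus lay above 0 and Cxcl13 below it.

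**Figure D4:**
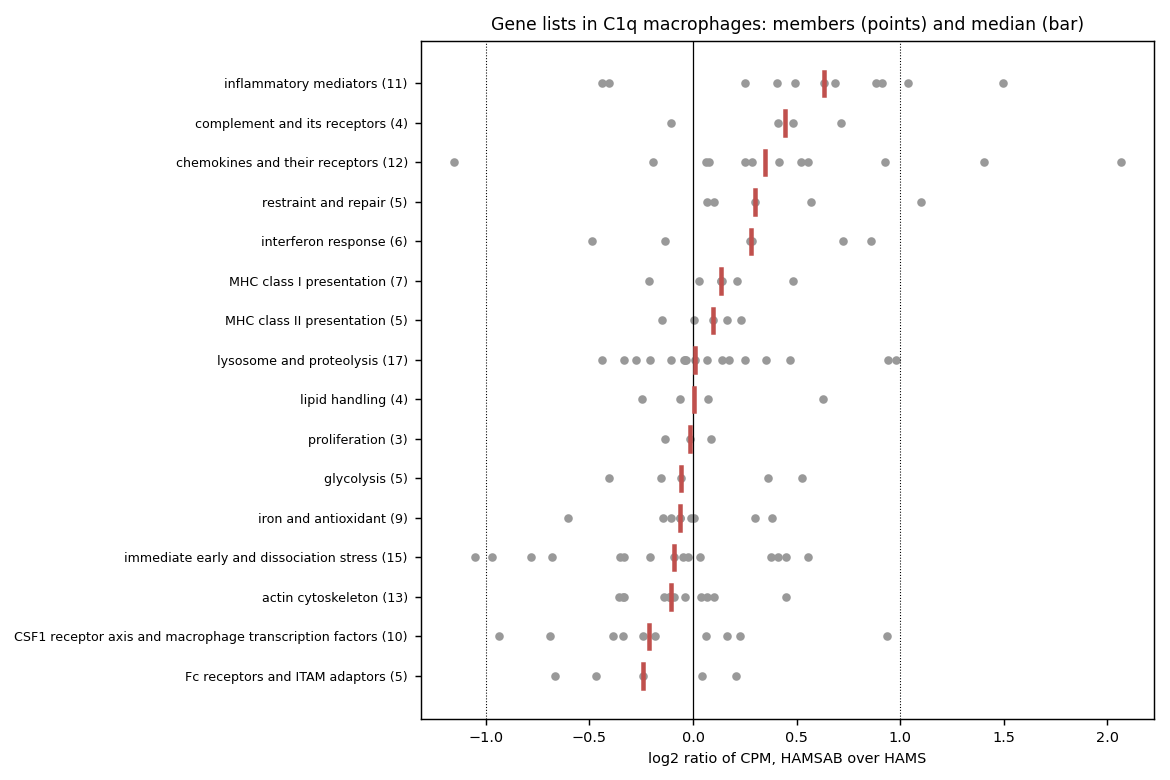
Log2 ratio of CPM, HAMSAB over HAMS, of the measured members (points) and their median (red bar) for 16 gene lists in C1q macrophages, with the number of measured genes in brackets. The median was highest for inflammatory mediators at 0.63 and lowest for Fc receptors and ITAM adaptors at -0.24.

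Of the 16 medians 6 kept their sign under each alternative run, those of inflammatory mediators, restraint and repair, immediate early genes, MHC class II, glycolysis and Fc receptors. Genes of restraint and repair had 5 measured of 21, with a median of 0.30 and 1 past 2-fold higher, beside 2.06% of all genes. That gene, Lilrb4a, an inhibitory receptor, stood at 410 CPM in HAMSAB and 191 CPM in HAMS (1.10, 0.37 to 1.87), and Il1rn, the interleukin 1 receptor antagonist, stood at 1183 and 798 CPM (0.57, 0.19 to 0.95). Of 26 immediate early and dissociation stress genes 15 were measured, with a median of -0.09. Past 2-fold higher were 0 and past 2-fold lower 1, beside 2.06% and 1.17% of all genes. Jun was that gene, at 209 CPM in HAMSAB and 432 CPM in HAMS (-1.05), and Btg2 (-0.97) and Egr1 (-0.78) lay with Fos, whereas Junb (0.56) and Klf6 (0.41) lay above 0. Of the other measured AP-1 genes, Fosb (-0.33), Atf3 (-0.35) and Jund (-0.03) lay below 0 with intervals that held 0. Among the AP-1 genes of this list Junb alone therefore lay above 0. Jun, Jund, Btg2 and Egr1 stood in both libraries at under 0.5 of their level in endocrine barcodes. In HAMSAB and HAMS those held 1303 and 1382 CPM of Jun and 1751 and 1686 CPM of Jund. They also held 1552 and 2358 CPM of Btg2 and 1727 and 1663 CPM of Egr1. Genes with such levels were left out of the ranking of named genes as possible free RNA, and the part of free RNA in these ratios was not tested. The interferon list had 6 measured of 30 and a median of 0.28. Of these 6, Rsad2, the antiviral viperin, was highest at 0.86 and Irf1 lowest at -0.49. Members that were not measured lay farther out on both sides, among them Ifi27l2a at 2.80 (0.70 to 5.97) and Gbp5 at -1.22 (-2.34 to -0.18).

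The genes of antigen presentation had medians near 0. The MHC class II list had 5 measured of 14 and a median of 0.10, and its most abundant members were Cd74, the invariant chain, and H2-Aa. Cd74 stood at 19774 CPM in HAMSAB and 21962 CPM in HAMS (-0.15, -0.23 to -0.07), while H2-Aa stood at 6285 and 5351 CPM (0.23, 0.08 to 0.38). The MHC class I list had 7 measured of 14 and a median of 0.13, with 0 of the measured genes past 2-fold, beside 3.23% of all genes.

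Genes of macrophage clearance functions came out on both sides of 0. Complement genes other than C1q had 4 measured of 15 and a median of 0.45, with Cfb, factor B of the alternative pathway, at 286 CPM in HAMSAB and 174 CPM in HAMS (0.71, -0.10 to 1.56). C5ar1 stood at -0.10. The lysosome list had 17 measured of 22 and a median of 0.01, with Ctsd (0.98) and Ctsc highest and Cd63 (-0.44) lowest. Lyz2 stood at 0.35 (0.18 to 0.52). The lipid list had 4 measured of 19 and a median of 0.00, with the cholesterol-esterifying enzyme Soat1 at 0.63 and the cholesterol exporter Abcg1 at -0.24. None of the measured genes of these 3 lists was past 2-fold, beside 3.23% of all genes, and members under 50 UMIs were not counted.

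The Fc receptor list had 5 measured of 10 and a median of -0.24, with Fcgr4 at -0.67 (-1.54 to 0.18). The list of the CSF1 receptor axis and macrophage transcription factors had 10 measured of 18 and a median of -0.21, with Irf8, a factor of dendritic and monocytic cells, at 0.94 (0.09 to 1.84) and Klf4 at -0.93 (-1.85 to -0.06). The iron and antioxidant list had 9 measured of 22 and a median of -0.06, with Nfe2l2, the factor NRF2, at -0.60 (-1.18 to -0.04). Glycolysis had 5 of 15 and a median of -0.06, with Hk2, a hexokinase, at 0.53 (0.05 to 1.01). Actin cytoskeleton genes had 13 of 19 and a median of -0.10, proliferation genes 3 of 20 and a median of -0.02, and oxidative phosphorylation genes 2 of 31 and a median of -0.15. Of the measured genes of these 7 lists 0 were past 2-fold, beside 3.23% of all genes. Members under 50 UMIs, most of the oxidative phosphorylation list among them, were not counted.

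The depth did not reach the genes through which short-chain fatty acids are known to act. None of 18 receptors, transporters and histone deacetylases had 50 UMIs, and their sum was 30 UMIs in HAMSAB and 31 in HAMS. The uptake receptors, among them Mrc1, Cd163 and Mertk, also had 0 measured of 18, with 61 and 56 UMIs in sum. A difference in these genes was not detectable at this depth.

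Within the macrophages, UMIs of the inflammatory mediators were unevenly spread. The 22 mediators gave a median of 6 UMIs per barcode in HAMSAB and 4 in HAMS, with highest values of 47 and 32. Barcodes with none numbered 9 of 174 in HAMSAB and 12 of 148 in HAMS. Leaving out Nfkbia, at least 1 UMI of the other 21 was seen in 89.7% of HAMSAB and 89.9% of HAMS macrophages, against 55.9% and 42.3% of T barcodes and 31.1% and 20.1% of endocrine barcodes. A single UMI of this list therefore marks many barcodes of other cells too. The richest 17 HAMSAB barcodes held 31.2% of these UMIs and the richest 15 HAMS barcodes 33.3%. Il1b was seen in 55.7% of HAMSAB (48.0 to 63.3%) and 52.0% of HAMS macrophages (43.7 to 60.3%), against 2.88% and 3.36% of T barcodes with median depths of 1066 and 1235 UMIs. With each barcode thinned to 500 UMIs the macrophage shares were 54.0% and 43.8%, over 137 HAMSAB and 128 HAMS barcodes, leaving out 37 and 20 shallower ones. Il1b was not particular to macrophages, which held 2280 CPM in HAMSAB and 1920 CPM in HAMS. The Ptgs2 set held 2952.5 and 2555.6 CPM of Il1b, and the 3 sets summed held 2125 and 1749 CPM. Il1b and Cxcl9 were seen together in 52 HAMSAB and 36 HAMS barcodes and neither in 37 and 42, so all combinations of these genes were seen.

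Other programmes were counted over more than 1 gene each, so their shares cannot be ranked against that of Il1b, a single gene. At least 1 UMI of 8 interferon-induced genes was seen in 67.2% of HAMSAB and 59.5% of HAMS macrophages, against 16.0% and 12.1% of T barcodes, and after thinning in 64.2% and 53.9%. Monocyte genes were seen in 6.90% of HAMSAB and 4.05% of HAMS macrophages, against 3.51% and 8.05% of T barcodes and 1.93% and 1.58% of endocrine barcodes. The HAMS share thus lay below that of T barcodes and above that of endocrine barcodes. Resident uptake receptors were seen in 4.60% and 2.70%, against 0.319% and 0.671% of T barcodes and 0.298% and 0.452% of endocrine barcodes. Genes of lipid-laden macrophages were seen in 15.5% and 16.2%, against 12.1% and 8.72% of T barcodes and 22.5% and 16.6% of endocrine barcodes. After thinning the shares were 11.7% and 10.9% of macrophages, 4.69% and 3.55% of T barcodes and 16.6% and 12.6% of endocrine barcodes. The macrophage share thus lay above that of T barcodes and below that of endocrine barcodes. Mitosis genes were seen in 13.8% and 15.5%, between endocrine barcodes (3.72% and 1.13%) and T barcodes (61.3% and 73.8%).

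The authors' deposited table for macrophages lists 37 genes, 12 higher and 25 lower in HAMSAB, from cells of the same 2 libraries by a selection that is not stated. Of the genes in the authors' deposited table, 3 had an adjusted p under 0.05, computed over cells and so not a test across mice. Pim1, a kinase induced by cytokines, had a log2 fold change of 0.62 in the authors' deposited table, and 0.45 (0.34 to 0.56) from the C1q macrophages here. Kdm6b, a histone H3 lysine demethylase, had 0.38 in the authors' deposited table and 0.36 (0.23 to 0.49) here. Neither rise was particular to macrophages. In T barcodes Pim1 stood at 0.68 (0.56 to 0.81) and Kdm6b at 0.50 (0.38 to 0.62). In endocrine barcodes both were lower in HAMSAB, at -0.34 and -0.56. Nfkbia had 0.51 in the authors' deposited table, and Cd74, with -0.33, had an adjusted p of 0.0649 there. These 4 genes lay on the same side of 0 in both sources, which share the same libraries.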

How the data were processed

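Islet cells were captured with Chromium 3' chemistry, per the labels' protocols. The deposited matrices hold raw UMI counts from Cell Ranger 5.0.0, per the file headers. Seurat and the builds mm10 and GRCm38 are named in the submitters' processing notes. For cell calling, annotation release and earlier filters nothing is stated. The authors' deposited macrophage table gives, per gene, a log2 fold change, a p-value and an adjusted p-value, from a test that is not stated.

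Barcodes were selected by the rule in the text with Python 3.11.15, numpy 2.4.6, scipy 1.17.1 and pandas 2.3.3. No doublet caller was run, and barcodes with T or B cell genes were left out. UMIs were summed per library. Ratios of CPM have exact conditional binomial intervals and shares exact Clopper-Pearson intervals, both at 95% and for counting error only. UMIs of the macrophages totalled 129364 in HAMSAB and 120342 in HAMS. The calculation was checked on simulated data with independent UMIs, which could not show how the intervals behave where UMIs clump in single barcodes.

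Named genes are the markers, the 12 highest and 12 lowest by interval bound among genes with at least 50 UMIs, and list members by size and abundance. Mitochondrial, ribosomal, Gm, Rik, receptor segment, haemoglobin and hormone genes were left out of that ranking, as were genes under 0.5 of their level in endocrine, T or B barcodes. Which list members the text prints was settled after their values were seen. In addition it takes the 20 genes highest and the 10 lowest in macrophages against the 3 sets, and up to 6 per direction of the authors' table. A marker gene of the macrophage list is not reported here. The members and the gene lists were chosen with earlier results of these data known. Promoters are from RefSeq, GRCm38.p6.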

Additional observations from a re-analysis of the deposited data

Results flagged for a closer look

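Of the 681 genes with at least 50 UMIs in C1q macrophages, 73 had a counting interval above 0 and 39 below 0. For 8 genes the diet ratio went one way in C1q macrophages and the other way in the 3 C1q-poor antigen-presenting sets summed, with counting intervals on opposite sides of 0. How many of the 681 genes had both intervals on the same side of 0 is not given, and Nfkbia, Cxcl1 and Fos were among those. The difference between the cell sets was not tested, since each diet has 1 library. Ly6a, the Sca-1 surface protein, had a log2 ratio of HAMSAB over HAMS of 1.65 in macrophages and -0.68 in the sets. By set, Ly6a was at -1.50 in the Xcr1 set, and at -0.85 in the Il1r2 set and -0.12 in the Ptgs2 set with intervals that held 0. Irf8 had 0.94 in macrophages and -0.58 in the sets. Il1rn, the interleukin 1 receptor antagonist, had 0.57 in macrophages and -0.53 in the sets. Nfkb1 had 0.63 in macrophages and -0.55 in the sets. Kdm6b, which also stands in the authors' deposited table, had 0.36 in macrophages and -0.16 in the sets. It was below 0 in the Xcr1 set (-0.23) and the Il1r2 set (-0.32), but at 0.06 (-0.05 to 0.18) in the Ptgs2 set. Smim10l1 had 0.90 in macrophages and -0.58 in the sets, but like Clu it was left out of the ranking of named genes as possible free RNA. Srrm1, a splicing protein, had -0.87 in macrophages and 0.75 in the sets. Clu had -0.68 in macrophages and 5.62 in the sets, but nearly all Clu UMIs of the macrophages sat in 3 barcodes. These held 129 of 133 UMIs in HAMSAB and 196 of 198 in HAMS. Without them the macrophage ratio was 0.86, on few UMIs and under the minimum of 50.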

How the results depend on the processing

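No paired analysis was possible because each diet has 1 library, so the groups share fewer than 2 replicate numbers and no replicate could be left out. Of 41 genes put through the alternatives, 38 kept their sign under each of the up to 12 run. The 41 were the 12 highest and 12 lowest by interval bound and others listed by hand, and not every gene named above. Most alternatives reused nearly the same barcodes, so for genes picked far from 0 a kept sign was largely set in advance. The exceptions were Cxcl9 (-0.45 with at least 500 genes per barcode), Clu (0.86 without the barcodes with 5 or more Clu UMIs) and Pam. Pam, chosen after its values were seen, had 1.27 with the rule as given, -0.56 with a hormone limit of 5%, -0.80 with no hormone limit and -0.39 with at least 3 C1q UMIs. The cause was not tested. Cxcl1 ranged from 1.93 to 2.47 over 11 alternatives, since at 500 genes it had 0 UMIs in HAMS and no ratio. Ptgs2 ranged from 0.53 to 2.37, Il12b from 0.81 to 1.89, Ccl3 from 0.76 to 3.0 and Cxcl13 from -2.32 to -0.97. Of 16 list medians 6 kept their sign, and that of inflammatory mediators ranged from 0.49 to 1.52.

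The share ratio was 0.824 (0.474 to 1.43) with at least 500 genes per barcode and 0.656 over barcodes under the hormone limit. The count of genes at least 2-fold lower was 14 with a hormone limit of 5%, 19 with no hormone limit and 1 with at least 500 genes per barcode. The count at least 2-fold higher was 8 with at least 500 genes per barcode and 9 with each barcode weighted equally. With that weighting 12 were at least 2-fold lower, so the lower genes outnumbered the higher. With at least 20 UMIs per gene 86 were higher and 85 lower, and with at least 100 UMIs 3 were higher and 3 lower. The lower minimum tests more genes and the higher one fewer. Requiring 500 genes left 28 HAMSAB and 30 HAMS macrophages. Leaving out Clu-rich barcodes, or the richest barcode of each gene, was chosen after seeing the data. Depth limits the counts of genes past 2-fold and the list medians to genes with at least 50 UMIs, unless another minimum is given.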
